A study of Mus musculus with 6 samples.

Results

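The Kruppel-like factors are a family of transcription factors, and 8 of their genes were followed by name through the series: Klf2, Klf3, Klf4, Klf6, Klf7, Klf10, Klf11 and Klf13. Each had 1 row among the 47643 reference genes of the deposited tables, found by gene name alone. The members were chosen with earlier results of these data known. The cells were natural regulatory T cells (nTregs, CD4 T cells that carry Foxp3) from spleens of C57BL/6 mice of the Foxp3-DTR/EGFP genotype, whose cells make a diphtheria toxin receptor and a green fluorescent protein under control of Foxp3. All cultures were activated for 2 days with antibodies to CD3 and CD28 and with IL-2. They were then given 100 nM of an agonist of the prostaglandin E2 receptor EP4 or the DMSO vehicle for 6 h, and GFP-positive cells were sorted for RNA. There were 3 libraries with EP4 agonist and 3 with vehicle, and the labels give no age or sex and name neither mice nor cultures for the replicates.

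Kruppel-like factors bind GC-rich DNA and the CACCC box through zinc fingers at the carboxy end of the protein, and differ in the rest of the chain, which recruits activators or repressors. In T cells Klf2 is known as a factor of quiescence that keeps up the receptors for recirculation through blood and lymph, and it is lost when the antigen receptor is engaged. Klf10 is known as a gene induced by TGF-beta with a part in regulatory T cell function in mice. The comparison asks which of these transcripts differed after EP4, a receptor that raises cyclic AMP, was stimulated outside the animal.

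The libraries rested on 4.32 to 5.65 gigabases of aligned sequence, estimated from each library's most common ratio of coverage to FPKM. FPKM counts fragments per kilobase of transcript, scaled to the size of the library. Foxp3 stood at 124 to 154 FPKM with the agonist and 109 to 153 FPKM with vehicle, and all 6 Treg markers averaged above 1 FPKM. Their sum was 1640 to 1810 FPKM with the agonist and 1488 to 1588 FPKM with vehicle, without overlap. Taken singly, only 1 of the 6 was separated, and the ranges of the others, Foxp3 included, overlapped between the groups. With the replicate block 1 Treg marker and 1 erythroid marker were called by limma, where 10.5% of all tested genes were called. Without it none of the markers were. Of 8 B cell markers 1 averaged at least 1 FPKM, and their summed level was 3.85 to 6.68 FPKM with the agonist and 6.20 to 6.59 FPKM with vehicle. Of 8 myeloid markers 2 averaged at least 1 FPKM, Cst3 and Cd68, while C1qa was listed at 0 in every library and the list summed to 66.5 to 67.9 FPKM with the agonist and 61.3 to 69.3 FPKM with vehicle. Erythroid markers, of which 2 of 6 averaged at least 1 FPKM, summed to 1.24 to 4.18 FPKM with the agonist and 2.94 to 8.09 FPKM with vehicle. Their part in the results was not tested. In these bulk libraries, fewer cells with a transcript and less of it per cell cannot be told apart.

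None of the 8 factors passed the test for a difference between EP4 agonist and vehicle (limma, 0 of 8 at an adjusted p under 0.05, with 0.394% of all tested genes called, and 0.0492% called as lower with the agonist). With the replicate number as a block the count was also 0, where 10.5% of tested genes were called, 4.09% as higher with the agonist. At an unadjusted p under 0.05 the count was 1 of 8 without the block, against 14% of tested genes, and 3 of 8 with it, against 29.8% of tested genes. The differences were small. The member log2 fold changes ran from -0.33 for Klf10 to 0.29 for Klf4, with a median of -0.10, where the median over all 12186 tested genes was -0.03. Klf3, Klf10 and Klf11 had every agonist value below every vehicle value, 3 of 8 members where 12.1% of tested genes were separated in that direction, and no member was separated in the other, where the share was 7.27%. In either direction 19.4% of tested genes were separated. With upper quartile scaling Klf10 alone stayed separated among the 8, where the share of all genes was 8.28%.

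The levels spanned a wide range and the order of the 8 was nearly the same in every library. Klf2, Klf6 and Klf13 together held 83.5, 85.5 and 86.7% of the summed FPKM of the 8 with the agonist and 83.3, 84.0 and 85.6% with vehicle. That sum was 120, 106 and 134 FPKM in the agonist libraries and 123, 124 and 148 FPKM in the vehicle libraries, so its ranges overlapped. Klf10, Klf3, Klf7, Klf11 and Klf4 followed in that order of mean FPKM. Within each group, neighbours in the order did not overlap, except Klf11 and Klf4 with the agonist, where the lowest Klf11 value was 1.53 FPKM and the highest Klf4 value 1.98 FPKM. The gap between Klf2 and Klf6 was narrow. The lowest Klf2 and highest Klf6 values were 36.5 and 36.2 FPKM with the agonist, and 40.5 and 39.2 FPKM with vehicle, and Klf2 was the higher one in all 6 libraries.

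**Figure D1:**
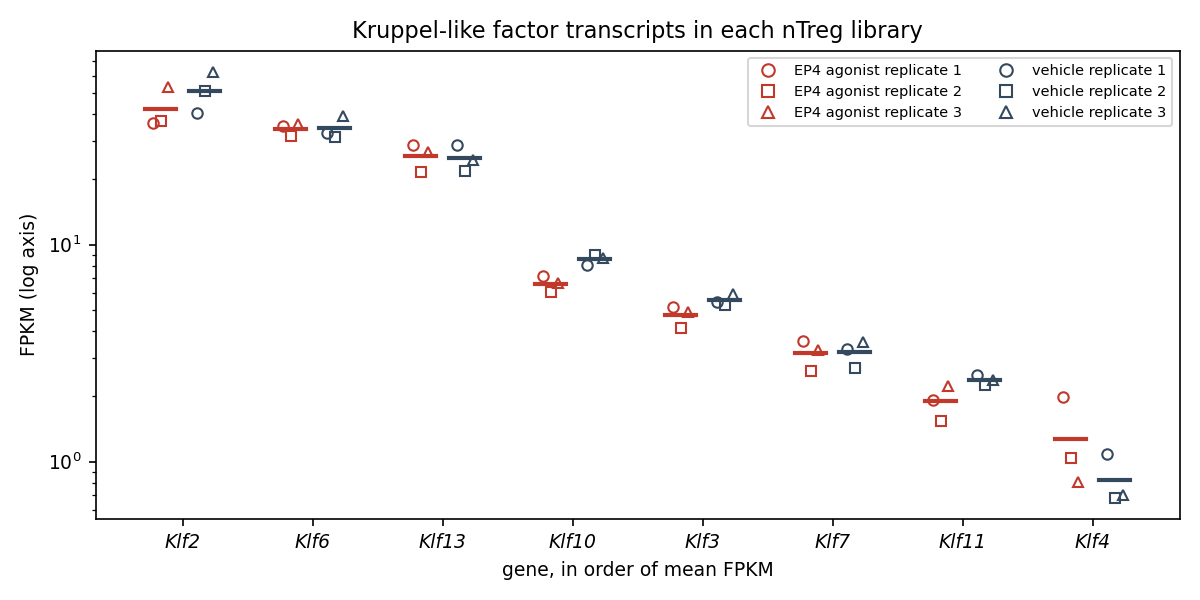
FPKM of the 8 Kruppel-like factor genes on a log axis, with EP4 agonist libraries in red left of vehicle libraries in dark blue, 1 symbol shape per replicate number and a bar at the mean of 3 libraries. Klf2 leads at 36.5 to 62.6 FPKM over all libraries and Klf4 is last at 0.683 to 1.98 FPKM, and the groups are apart for Klf10, Klf3 and Klf11.

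Klf2 (ENSMUSG00000055148.7, chromosome 8, 72319033 to 72321656, mm10, plus strand) is the quiescence factor and had the highest level. It stood at 36.5, 37.1 and 53.6 FPKM in agonist replicates 1, 2 and 3, against 40.5, 51.1 and 62.6 FPKM in vehicle replicates 1, 2 and 3. The groups overlapped, the library numbered 3 was the highest in both, and within each number the agonist value was the lower one. The means were 42.4 ± 9.69 FPKM with the agonist and 51.4 ± 11.01 FPKM with vehicle (SD, n = 3 each). The log2 fold change was -0.27 with a 95% interval of -0.74 to 0.19 (limma, adjusted p = 0.582). With the block the interval was -0.46 to -0.09 and the adjusted p was 0.0779, which did not pass. Without vehicle replicate 3 the log2 fold change was -0.12, and without agonist replicate 3 it was -0.45. Relative to Klf6, a member whose level was alike in both groups, Klf2 stood at 1.04, 1.17 and 1.48 times its FPKM with the agonist and at 1.23, 1.62 and 1.60 times with vehicle. The ratio overlapped between the groups.

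Klf4 (ENSMUSG00000003032.8, chromosome 4, 55527143 to 55532466, minus strand), the relative of Klf2 known from barrier epithelia, monocytes and pluripotent cells, was scarcely detected. Its values were 1.98, 1.04 and 0.805 FPKM with the agonist, against 1.08, 0.683 and 0.705 FPKM with vehicle. The agonist value was higher at each number, but the groups overlapped and 3 of 6 libraries reached 1 FPKM, the least with which a gene is tested. The log2 fold change was 0.29 with an interval of -0.20 to 0.79 (limma, adjusted p = 0.578). Without agonist replicate 1 it was 0.08, and with a pseudocount of 0.1 it was 0.51. Of the myeloid markers, from cells in which Klf4 is known to be expressed, Cd68 stood at 3.64 to 5.28 FPKM with the agonist and 2.26 to 4.08 FPKM with vehicle. Cst3, which made up most of their sum, stood at 61.4 to 62.3 FPKM with the agonist and 56.4 to 64.4 FPKM with vehicle. Their part in the Klf4 values was not tested.

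Klf10 and Klf11 are the pair first known as TGF-beta inducible early genes, and both act with the Sin3 corepressors. Klf10 (ENSMUSG00000037465.9, chromosome 15, 38294413 to 38300707, minus strand) had 7.15, 6.03 and 6.69 FPKM with the agonist, against 8.07, 8.94 and 8.68 FPKM with vehicle. The groups were apart, with a gap between 7.15 and 8.07 FPKM. The means were 6.63 ± 0.563 and 8.56 ± 0.448 FPKM (SD, n = 3 each), and the log2 fold change of -0.33 had an interval of -0.54 to -0.11. Its unadjusted p was 0.00863, the lowest of the 8, and it did not pass over all genes (limma, adjusted p = 0.198, and 0.0737 with the block). Over 18 alternatives the log2 fold change lay between -0.42 and -0.24 and the adjusted p between 0.0737 and 0.551, so it passed in 0 of them.

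Klf11 (ENSMUSG00000020653.11, chromosome 12, 24651371 to 24662774, plus strand) stood at a lower level, 1.93, 1.53 and 2.23 FPKM with the agonist, against 2.52, 2.25 and 2.39 FPKM with vehicle. The groups touched without overlap, the highest agonist value at 2.23 FPKM and the lowest vehicle value at 2.25 FPKM. The log2 fold change was -0.23 with an interval of -0.53 to 0.07 (limma, adjusted p = 0.466, and 0.201 with the block). Klf10 had 3.70, 3.93 and 2.997 times the FPKM of Klf11 with the agonist and 3.21, 3.98 and 3.64 times with vehicle, so the ratio of the pair overlapped between the groups.

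Klf3 (ENSMUSG00000029178.14, chromosome 5, 64803388 to 64832901, plus strand) encodes a repressor that works through CtBP. It had 5.18, 4.13 and 4.89 FPKM with the agonist, against 5.47, 5.25 and 5.94 FPKM with vehicle. The groups were apart by a small margin, and the log2 fold change was -0.20 with an interval of -0.44 to 0.05 (limma, adjusted p = 0.458, and 0.163 with the block). The separation was not seen in the other deposited measures of the same gene. The locus assembled from each library's own reads over Klf3 had 6.35, 4.13 and 5.69 FPKM with the agonist and 5.79, 5.95 and 7.16 FPKM with vehicle. Coverage per aligned gigabase was 2.11, 1.46 and 1.93 with the agonist and 1.90, 2.07 and 2.49 with vehicle. In both the groups overlapped.

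**Figure D2:**
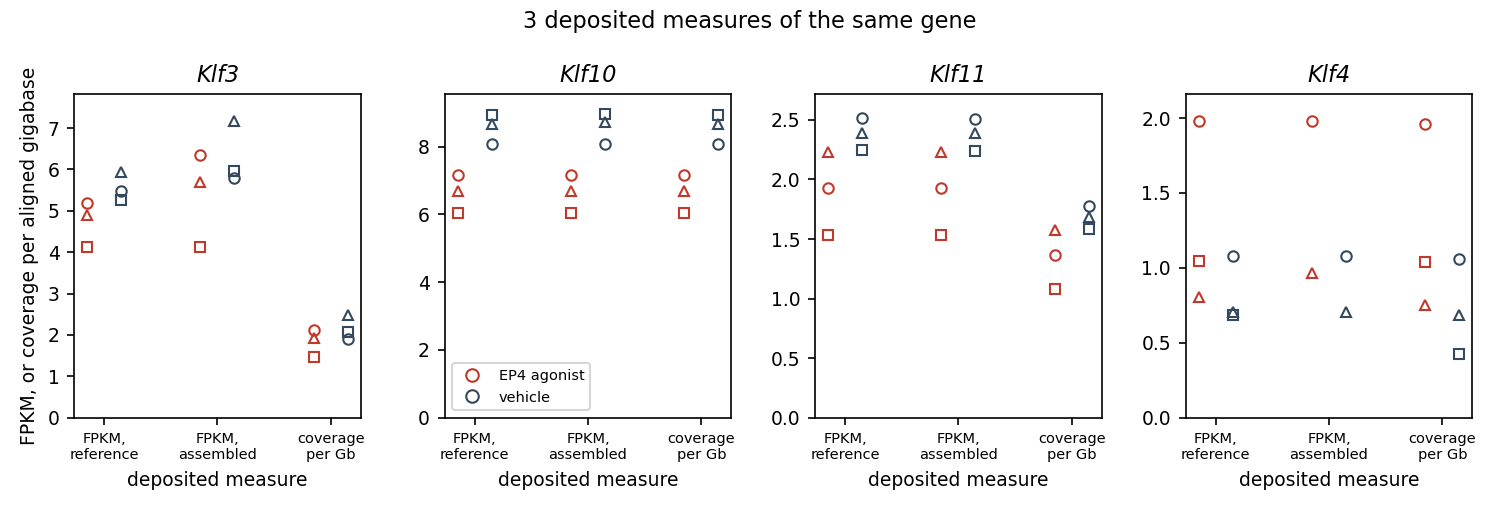
Value per library of Klf3, Klf10, Klf11 and Klf4 in 3 deposited measures: FPKM of the reference row, FPKM of the assembled locus that spans the gene, and coverage per aligned gigabase. EP4 agonist (red) is left of vehicle (dark blue), and circles, squares and triangles are replicates 1, 2 and 3. The groups are apart in every measure for Klf10 and Klf11 but only in the first for Klf3. For Klf10 and Klf11 the 3 measures are nearly proportional over the libraries, so they are not separate evidence of the separation. On coverage 12.9% of tested genes are apart as lower with the agonist. Klf4 has no assembled value in agonist replicate 2 or vehicle replicate 2.

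The deposited measures were not proportional for every gene. Coverage divided by FPKM was 99.99 to 100.0% of the library's most common ratio for Klf2, Klf6 and Klf10. For Klf3, which has 9 transcript models in GENCODE M21, it was 34.7 to 41.9% of that ratio. It was 70.5 to 70.6% for Klf11, 83.3 to 84.6% for Klf13 and 93.0 to 96.0% for Klf7. For Klf4 it was 62.5% in vehicle replicate 2 and 93.7 to 99.3% in the other libraries. The order of Klf3 and Klf7 differed between the measures. In FPKM Klf3 averaged 4.73 with the agonist and 5.55 with vehicle, above Klf7 at 3.18 and 3.19, whereas in coverage per gigabase Klf3 averaged 1.83 with the agonist and 2.15 with vehicle, below Klf7, which ran from 2.44 to 3.45 with the agonist and from 2.60 to 3.34 with vehicle. The assembled locus gave the reference FPKM of Klf2 exactly and that of Klf6, Klf10, Klf11 and Klf13 within 0.614% in each library. For Klf4 no single assembled locus spanned 90% of the gene in agonist replicate 2 or vehicle replicate 2.

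Klf6, Klf7 and Klf13 gave fold changes near 0, and their sign turned under some of the alternatives. Klf6 (ENSMUSG00000000078.6, chromosome 13, 5861489 to 5870393, plus strand), a broadly expressed member described as a growth suppressor, had 35.1, 31.6 and 36.2 FPKM with the agonist, against 32.9, 31.4 and 39.2 FPKM with vehicle. Its log2 fold change was -0.0039 with an interval of -0.25 to 0.24 (limma, adjusted p = 0.992). With the block the interval was -0.15 to 0.14. Klf13 (ENSMUSG00000052040.10, chromosome 7, 63886351 to 63938915, minus strand), described in human T cells as an activator of the chemokine gene CCL5, had 28.8, 21.6 and 26.7 FPKM with the agonist, against 28.8, 21.8 and 24.6 FPKM with vehicle. Same-numbered libraries were nearly level, and the log2 fold change was 0.03 with an interval of -0.29 to 0.35, or -0.09 to 0.16 with the block. Klf7 (ENSMUSG00000025959.13, chromosome 1, 64029447 to 64122282, minus strand), a member best known from neurons, had 3.62, 2.63 and 3.29 FPKM with the agonist, against 3.31, 2.71 and 3.56 FPKM with vehicle. Its log2 fold change was -0.0073 with an interval of -0.32 to 0.31 (limma, adjusted p = 0.989). For these 3 genes the intervals without the block leave room for a change of up to about 0.35 on the log2 scale.

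**Figure D3:**
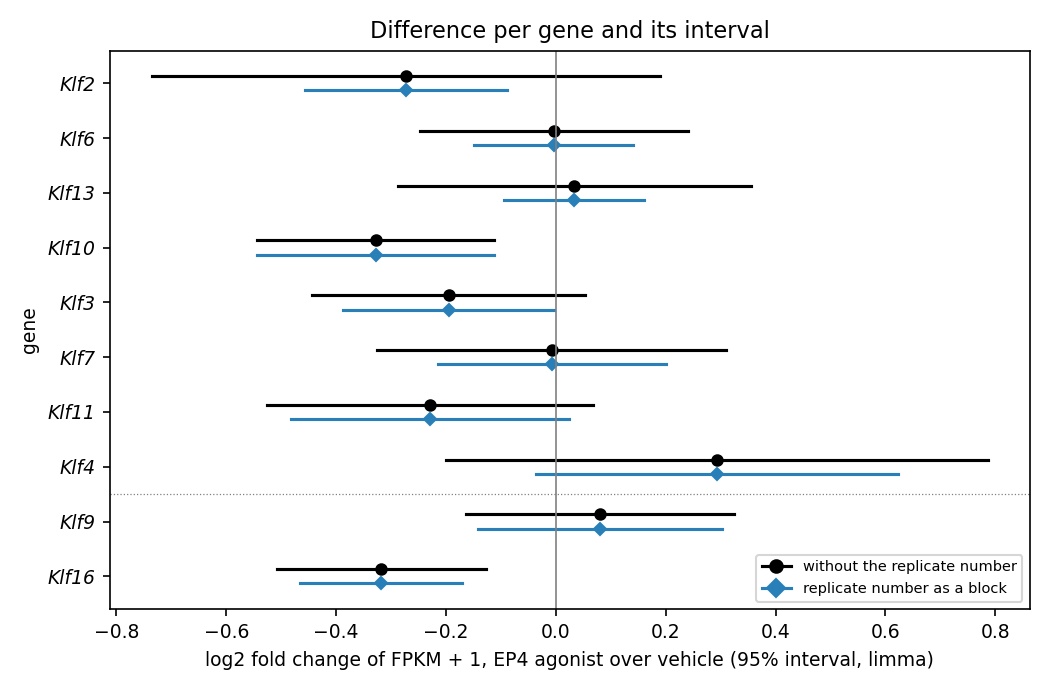
Log2 fold change of FPKM + 1, EP4 agonist over vehicle, with limma's 95% interval for each of the 8 genes and, below the dotted line, for Klf9 and Klf16. Black is the fit without the replicate number and blue the fit with it as a block. The interval excludes 0 without the block for Klf10 and Klf16, and with the block also for Klf2 and Klf3, before adjustment over all genes.

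Libraries with the same number were also read as pairs. Within number, 4 of 8 members, Klf2, Klf3, Klf10 and Klf11, were lower with the agonist in 3 of 3 pairs, where 31.6% of tested genes were. Klf4 was higher in 3 of 3, where 20.7% of tested genes were. The differences of Klf2 were -0.15, -0.45 and -0.22 for the libraries numbered 1, 2 and 3, on the log2(FPKM + 1) scale. Those of Klf10 were -0.15, -0.50 and -0.33, and those of Klf3 were -0.06, -0.28 and -0.24. The libraries numbered 2 gave the largest decrease for each of Klf2, Klf3, Klf10 and Klf11. Klf4 differed by 0.52, 0.28 and 0.08.

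**Figure D4:**
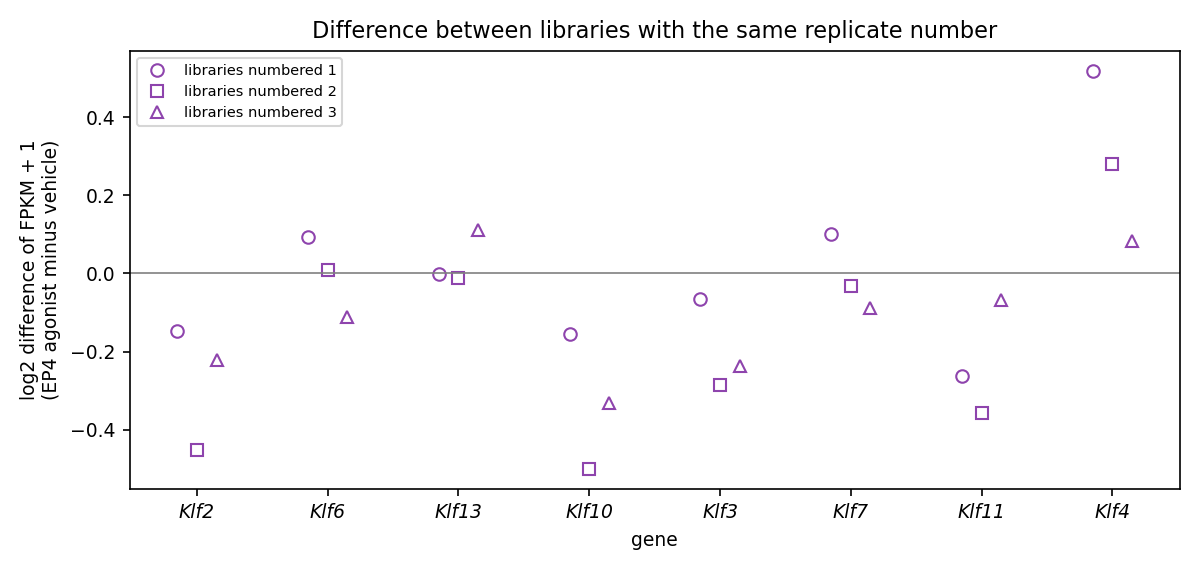
Log2 difference of FPKM + 1 between the EP4 agonist and the vehicle library with the same replicate number, for each of the 8 genes, with circles, squares and triangles for numbers 1, 2 and 3. All 3 points lie below 0 for Klf2, Klf10, Klf3 and Klf11 and above 0 for Klf4, from -0.50 for Klf10 in the libraries numbered 2 to 0.52 for Klf4 in those numbered 1.

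The rest of the family was mostly silent. Of 9 further Kruppel-like factor genes in the tables, 2 were tested, Klf16 and Klf9. Klf16 had 11.9, 12.2 and 12.004 FPKM with the agonist, against 14.0, 16.3 and 15.5 FPKM with vehicle. The groups were apart, with means of 12.02 ± 0.142 and 15.3 ± 1.18 FPKM (SD, n = 3 each). Its log2 fold change was -0.32 with an interval of -0.51 to -0.13, and it fell with the block (limma, adjusted p = 0.0373, with 6.41% of tested genes called in that direction) but not without it (adjusted p = 0.173). With the block and quantile normalization together it did not pass. Klf9, a gene induced by glucocorticoid and thyroid hormone, had 1.80, 1.89 and 1.92 FPKM with the agonist, against 1.64, 1.71 and 1.80 FPKM with vehicle, and its log2 fold change was 0.080 (adjusted p = 0.780 by limma). Its groups were just apart, with the lowest agonist value at 1.803 FPKM and the highest vehicle value at 1.796 FPKM. Of all tested genes 7.27% were separated in that direction and 12.1% in that of Klf16. Klf15 was listed at 0 in all 6 libraries and Klf14 and Klf17 in 5. Klf1, Klf5, Klf8 and Klf12 stayed between 0.0163 and 0.776 FPKM, and Klf1, the erythroid member, between 0.0163 and 0.172 FPKM.

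The stretches before the start of 4 genes are shown, those of Klf2, Klf3 and Klf11, which were lower with the agonist at each replicate number, and that of Klf4, which was higher. The sequences are RefSeq's on GRCm38.p6, 5′ to 3′ on the strand of the gene, and end at the start the deposited tables give, or, for Klf4, a few bases before it. Capitals mark CACCC, the box bound by Kruppel-like factors, and TGACG, the core of a cyclic AMP response element, each on either strand. Klf2 lies at chr8:72318812-72319032 (+), Klf3 at chr5:64803271-64803387 (+), Klf11 at chr12:24651121-24651370 (+) and Klf4 at chr4:55532476-55532725 (-).
Klf2: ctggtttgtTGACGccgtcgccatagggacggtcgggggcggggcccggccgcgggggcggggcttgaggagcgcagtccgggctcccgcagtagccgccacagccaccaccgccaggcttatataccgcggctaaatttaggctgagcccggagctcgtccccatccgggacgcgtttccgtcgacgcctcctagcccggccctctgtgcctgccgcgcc
Klf3: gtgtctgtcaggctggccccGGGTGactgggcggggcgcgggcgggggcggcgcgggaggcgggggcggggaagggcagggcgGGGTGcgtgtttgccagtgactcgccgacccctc
Klf11: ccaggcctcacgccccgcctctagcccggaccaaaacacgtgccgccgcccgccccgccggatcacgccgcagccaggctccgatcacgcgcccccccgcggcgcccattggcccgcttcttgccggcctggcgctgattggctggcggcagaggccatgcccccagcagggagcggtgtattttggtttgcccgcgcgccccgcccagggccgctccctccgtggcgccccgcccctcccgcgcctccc
Klf4: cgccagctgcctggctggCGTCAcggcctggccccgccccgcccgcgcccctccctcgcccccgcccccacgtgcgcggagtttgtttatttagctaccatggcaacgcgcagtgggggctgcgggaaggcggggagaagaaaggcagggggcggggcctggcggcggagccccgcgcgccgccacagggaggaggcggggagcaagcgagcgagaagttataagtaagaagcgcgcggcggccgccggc

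Of the 8 genes, 7 had a RefSeq window and Klf10 had none. Such a window runs from 250 bases before to 50 after the gene's start in RefSeq. In the full windows TGACG occurred in those of Klf2, Klf3, Klf4 and Klf13, and in 20.8% of all 32851 windows and 33.0% of those of tested genes. The full palindrome TGACGTCA, which contains TGACG, was in none of the 7 and in 1.79% of all windows. CACCC occurred in the windows of Klf2, Klf3, Klf7 and Klf13, with 5 matches in that of Klf3. It was in 57.5% of all windows and in 62.4% of those of tested genes. Counted from the deposited starts, the Klf7 window lay wholly within the gene. So did the CACCC match of Klf2, the TGACG match of Klf3 and all but 2 of the Klf3 CACCC matches. The forkhead site GTAAACA was in none of the 7 and in 3.65% of all windows. The GC box GGGCGG was in all 7 windows, in 35.7% of all windows and in 64.4% of those of tested genes. Over both strands these are letter matches, and occupancy of the sites was not measured.

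Exact matches between the coding sequences of the 8 genes were short, while untranslated parts and near matches were not compared. The longest run of identical bases in the coding sequences of any pair of the 8, in GENCODE M21, was 26 bases, between Klf6 and Klf7, near the end of both, where the zinc fingers are encoded. Only a read wholly within this stretch would match both coding sequences exactly, and the assignment of reads was not measured.
Klf6 and Klf7: gacaggtgtttctccaggtctgacca
The next longest were 20 bases between Klf2 and Klf7 and 18 bases between Klf2 and Klf10. The read length is not given in the sources used here. Among other reference gene models that overlap a member, those over Klf3, Klf7 and Klf13 had at most 0.506 FPKM in any library.

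Genes of recirculation and quiescence known to depend on Foxo1 and Klf2 did not move one way. Of 7 tested, 0 passed without the block and with it 1 rose and 1 fell. Their median log2 fold change was -0.05. With the block 4.09% of all tested genes rose and 6.41% fell. Over all lists 7 of 45 tested genes were called with the block, against 10.5% of all tested genes. Of these 7, Rasgrp2 alone was called without the libraries numbered 1, and 0 were without those numbered 2 or those numbered 3. S1pr1, the receptor for egress from lymphoid organs and a direct target of Klf2, had 57.0, 51.5 and 76.8 FPKM with the agonist and 54.7, 53.0 and 76.7 FPKM with vehicle. Like Klf2 it was highest in both libraries numbered 3. Itgb7, an integrin chain of gut homing, had 171, 180 and 207 FPKM with the agonist and 186, 198 and 230 FPKM with vehicle, and its log2 fold change was -0.14 (adjusted p = 0.643 by limma). Ccr7, the chemokine receptor for lymph node entry, had 75.4, 34.2 and 40.5 FPKM with the agonist and 65.6, 39.3 and 45.6 FPKM with vehicle.

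The riser was Il7r, the IL-7 receptor chain controlled by Foxo1, with 15.03, 14.5 and 13.5 FPKM in agonist libraries and 10.3, 8.81 and 9.62 FPKM in vehicle libraries. Its log2 fold change was 0.54 (limma, adjusted p = 0.0198 with the block and 0.0630 without). Without the block its adjusted p ranged from 0.0408 to 0.252 over the alternatives. Rasgrp2, an exchange factor of the GTPase Rap1 that serves integrin adhesion, had 8.89, 11.7 and 14.1 FPKM with the agonist and 15.2, 21.3 and 22.6 FPKM with vehicle. The groups were apart, and it fell with the block by 0.72 on the log2 scale (limma, adjusted p = 0.0142, and 0.186 without).

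Of the known upstream regulators, 9 of 10 were tested and 0 passed without the block. With it 1 rose, against 4.09% of all tested genes. This was Mef2d, a MEF2 factor activated by the kinase ERK5 and the arm through which ERK5 induces Klf2. It had 61.0, 36.9 and 49.6 FPKM with the agonist and 43.1, 28.1 and 32.1 FPKM with vehicle. The groups overlapped, each agonist library was above the vehicle library of its number, and the log2 fold change was 0.50 (limma, adjusted p = 0.0209 with the block and 0.360 without). Foxo1, the forkhead factor that sustains Klf2 in resting T cells, had 19.7, 14.4 and 17.1 FPKM with the agonist and 18.4, 14.2 and 16.7 FPKM with vehicle (log2 fold change 0.05, interval -0.27 to 0.37). The genes Map3k3 and Map2k5, of kinases above ERK5, had log2 fold changes of -0.037 and 0.050. The 4 ubiquitin ligase genes Wwp1, Smurf1, Fbxw7 and Itch, whose products are known to act on Kruppel-like factor proteins, gave 0 calls in either fit. Their fold changes ran from 0.025 to 0.26, the highest for Wwp1 (limma, adjusted p = 0.0555 with the block).

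Cofactors gave 0 calls in either fit among 9 tested, with a median log2 fold change of -0.03. Ctbp1, the partner of Klf3, had 35.0, 41.0 and 38.3 FPKM with the agonist and 43.0, 46.2 and 42.6 FPKM with vehicle, values that did not overlap (log2 fold change -0.20; limma, adjusted p = 0.349, and 0.0694 with the block). Hdac1, a histone deacetylase, had 119, 118 and 115 FPKM with the agonist and 112, 105 and 105 FPKM with vehicle. The corepressor Sin3b, to which Klf10 and Klf11 bind, had a log2 fold change of 0.097 and the deacetylase Hdac3 one of -0.070, and neither passed. Among the 9, Hdac1 was separated without overlap as higher with the agonist, and Ctbp1 and Hdac3 as lower. Of all tested genes 7.27% were separated as higher and 12.1% as lower. Of the Sp factors, which share the zinc fingers of the family, 5 of 9 were tested and 0 passed without the block. With it 1 fell, against 6.41% of all tested genes. That was Sp2, with 4.73, 6.26 and 8.19 FPKM with the agonist and 6.16, 9.01 and 10.5 FPKM with vehicle (limma, adjusted p = 0.0345 with the block and 0.504 without). Sp1 and Sp3 had log2 fold changes of 0.056 and 0.014.

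Genes described as targets of single Kruppel-like factors gave 0 calls of 9 without the block, and with it Cdkn1b rose and Lgals3 fell. Of all tested genes 4.09% rose and 6.41% fell with the block. Cdkn1b, the cell cycle inhibitor p27, had 59.1, 51.9 and 56.7 FPKM with the agonist and 48.2, 37.3 and 47.6 FPKM with vehicle. The groups were apart and the log2 fold change was 0.34 (limma, adjusted p = 0.0360 with the block and 0.281 without). Lgals3, which encodes galectin 3 and is known to be repressed by Klf3, had 22.8, 41.1 and 30.0 FPKM with the agonist and 28.3, 50.9 and 43.2 FPKM with vehicle. The groups overlapped (adjusted p = 0.0325 with the block and 0.570 without). Myc, a driver of growth and proliferation, had 46.9, 57.2 and 65.5 FPKM with the agonist and 51.0, 77.8 and 71.2 FPKM with vehicle, with overlap. Tgfb1, Foxp3 and Cdkn1a did not pass, with log2 fold changes of -0.0020, 0.038 and -0.065.

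**Figure D5:**
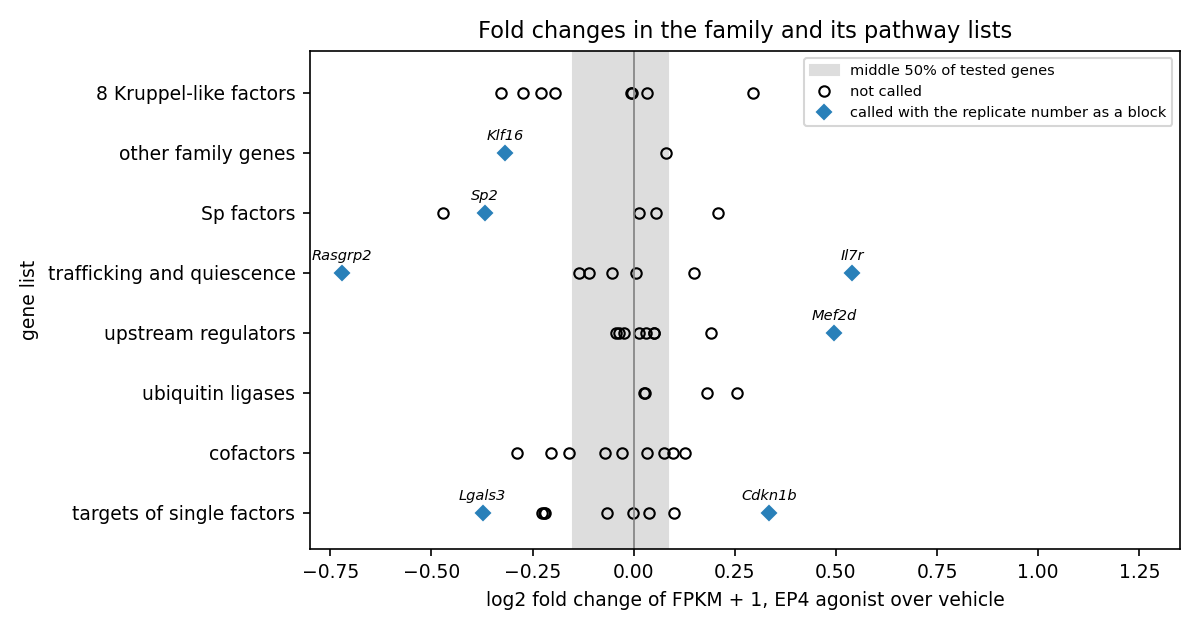
Log2 fold change of FPKM + 1, EP4 agonist over vehicle, of each tested gene in the family and in the 7 lists around it. Filled blue diamonds are genes called by limma with the replicate number as a block, open circles are not called, and the grey band holds the middle 50% of all tested genes, from -0.15 to 0.09. The called genes run from -0.72 for Rasgrp2 to 0.54 for Il7r, and none is among the 8 factors.

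The pattern of a member over the 6 libraries was compared with that of every tested gene of mean FPKM at least 10, by Pearson's r of log2(FPKM + 1), as a description. Klf2 was most like Nusap1, Prpf8 and Rbl1, each with r = 0.99, and 168 of 6119 genes compared had r above 0.9 with it. Klf10 was most like Mcrs1 with r above 0.99, then Gm28038 and Ap1g2. Klf3 was most like Nbeal2, Eps15l1 and Trav16n, and Klf11 most like Gm26825, Taf4a and Kctd20. Klf4 was most like mt-Tp, 2010016I18Rik and Tnrc6a, Klf6 most like Fam129a, Fam20b and Pum2, Klf7 most like Ttc33, Zfp91 and Rab11b-ps2, and Klf13 most like Adam17, Msi2 and Papd4. Among the members themselves Klf3 tracked Klf10 and Klf11 at r = 0.86 with each, and Klf7 tracked Klf13 at r = 0.83. Klf2 and Klf4 ran opposite to each other at r = -0.78. These 6 points share the difference between groups and the replicate numbers.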

How the data were processed

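The deposited data are 1 table for each of 6 RNA libraries of sorted nTregs, made on mm10 from stranded mRNA libraries per the labels' protocols. The submitters' processing notes name Trim Galore and HISAT2, with no versions. No source used here names the abundance program, its annotation or its strand setting. Per the file headers, the authors' values are FPKM (fragments per kilobase of transcript, scaled to library size) and coverage, a per-base signal. A TPM column, whose sums are larger than a TPM scale allows, was not used. FPKM of rows with the same reference identifier were summed. Reference genes reaching 1 FPKM in 3 libraries or more, 12186 in all, were tested as log2(FPKM + 1).

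EP4 agonist was compared with vehicle by limma 3.58.1 (intensity trend, robust variances, statmod 1.5.0; R 4.3.3). P-values were adjusted over all tested genes by Benjamini-Hochberg, with a threshold of 0.05, and "rose" and "fell" refer to it. The script was tested on simulated data. This scale understates fold changes of genes with low FPKM. Intervals are limma's 95% intervals for 1 gene, unadjusted for the number of genes. Python 3.11.15, pandas 2.3.3, numpy 2.4.6 and matplotlib 3.10.9 were used for tables and plots.

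Fragment counts are unknown, so precision is given by the spread between libraries. The labels name neither mice nor cultures for the replicates, so p-values reflect only that spread, which may be technical. Both groups carry replicate numbers 1, 2 and 3. Deviations from group means correlated at 0.512, 0.404 and 0.321 between same-numbered libraries and at -0.353 to 0.002 between others. Deviations are centred within each group, so the values between others are not independent of those between same-numbered libraries. As each same-numbered pair exceeded 0.1, the number was also fitted as a block. The pairing rests on these correlations alone.

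The members and lists were chosen with earlier results of these data known. The genes named are all 8 members, the listed genes that passed with or without the block or were among the 4 of highest mean FPKM in their list, and for each member the 3 genes of mean FPKM at least 10 with the highest correlation to it. Of these lists and the cell type markers, 2 genes are not reported here by name. Alternatives were another pseudocount, filter, normalization, unit and variance model, the block, and each library or pair left out. The FPKM of assembled loci was added after the data were seen.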

Additional observations from a re-analysis of the deposited data

How the results depend on the processing

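No Kruppel-like factor member passed under any alternative run, the replicate block included, and the block changed no call of a member. Klf2, Klf3, Klf10 and Klf11 stayed lower and Klf4 higher in each alternative that tested them. With a minimum FPKM of 5, Klf4, Klf7 and Klf11 were not tested. The log2 fold change of Klf6 turned to 0.057 with quantile normalization, without or with the replicate block, and to 0.037 with upper quartile scaling. It ranged from -0.066 to 0.089 with 1 library left out, and was 0.050 with the replicate block and without the libraries numbered 3. That of Klf7 turned to 0.024 with upper quartile scaling and ranged from -0.092 to 0.091 with 1 library left out. With the replicate block it was 0.0055 without the libraries numbered 2 and 0.034 without those numbered 3. That of Klf13 ranged from -0.059 to 0.15 with 1 library left out, and was -0.0061 with the replicate block and without the libraries numbered 3. The cause was not tested.

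Over all genes limma called 48. The count was 2 of 26424 without a filter on low values, 75 with upper quartile scaling, 1279 with the replicate block (498 higher and 781 lower) and 997 with the block and quantile normalization (519 higher and 478 lower). It was 4, 0 and 5 without agonist replicates 1, 2 and 3, and 133, 0 and 0 without vehicle replicates 1, 2 and 3. Where it was 0, the unadjusted p was under 0.05 for 1606 genes without agonist replicate 2, 1033 without vehicle replicate 2 and 1115 without vehicle replicate 3. With the replicate block it was 241, 0 and 1 without the libraries numbered 1, 2 and 3, and 2557 genes had an unadjusted p under 0.05 without those numbered 2. Of the 45 listed pathway genes tested 0 were called. The count was 1, Il7r each time, with a minimum FPKM of 5, quantile normalization, upper quartile scaling or no vehicle replicate 1. It was 7 with the replicate block, 6 with quantile normalization as well, and 1, Rasgrp2, with the block and without the libraries numbered 1. With the block it was 0 without those numbered 2 and 0 without those numbered 3, where 11 and 10 listed genes had an unadjusted p under 0.05. Fragment counts are unknown, so what depth limits could not be given per gene.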
